A study of Mus musculus with 2 samples.

Results

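Feedback genes of the NF-kB pathway were followed in the immune cells of the dorsal root ganglion (DRG), with the question of whether Tnip3 and the Bcl2a1 paralogs shared the pattern of the general feedback genes or kept to a subset of cells. The members were 10 of the 16819 genes of the deposited expression matrix: Tnip3, Tnip1, Tnfaip3, Nfkbia, Nfkbiz, Nfkbie, Nfkbid, Bcl2a1a, Bcl2a1b and Bcl2a1d. They were picked by name after results of the male cells had been seen, so their levels across the male classes, and the male Ccr2 and Fcrls contrast, are a description without a test. Cells came from naive wild-type BALB/cAnNRj mice, 3 male and 3 female, whose ages the labels do not give. Pooled ganglia of each mouse were digested with collagenase and dispase, living CD45+ cells were sorted, and each mouse was marked with a hashtag antibody (an oligonucleotide-tagged antibody that labels every cell of a sample) before all mice shared 1 lane of a droplet assay that counts transcript 3′ ends as unique molecular identifiers (UMIs). The hashtags left 2668 male and 1073 female cells, with 313 to 1415 cells a mouse and a median of 7236.5 to 9137 UMIs a cell.

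NF-kB is held in the cytoplasm by inhibitor proteins and enters the nucleus when a receptor signal leads to their breakdown. Among its targets are genes that shut the pathway down again: the inhibitor IκBα (Nfkbia), the ubiquitin-editing enzyme A20 (Tnfaip3) and the A20-binding proteins Tnip1 and Tnip3. Bcl2a1 genes, also NF-kB targets, encode A1, a relative of Bcl-2 that protects leukocytes from apoptosis, and macrophages of the nerve and ganglion are known to sample blood-borne material and to respond to injury.

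Promoter windows of the members were searched for an NF-kB motif. RefSeq windows of 300 bases (250 before and 50 after each annotated start, GRCm38.p6) were found for 9 of the 10 members. Nfkbiz had no entry. Windows were searched on both strands for the NF-kB consensus decamer, which 8.46% of all 32851 windows held (2779). It was present for Tnip3, Tnip1, Tnfaip3 (in 1 of 2 windows), Nfkbia, Nfkbie and Nfkbid (in 1 of 3 windows). No match to these letters was found in the windows of Bcl2a1a, Bcl2a1b and Bcl2a1d, as in most windows of all genes. The paralog windows are alike, so they are not 3 independent observations. Bcl2a1a and Bcl2a1d were 94.1% identical there, Bcl2a1a and Bcl2a1b 73.8%, and Bcl2a1b and Bcl2a1d 70.6%. Windows are given, with the match in capitals, for the most subset-bound member and for the paralog closest to Tnip3 in the tests. They are also given for the 2 general feedback genes best measured in macrophages among those with a window. They lie at chr6:65590148-65590447 (plus strand) for Tnip3, chr12:55492598-55492897 (minus strand) for Nfkbia, chr10:19015361-19015660 (minus strand) for Tnfaip3 and chr9:88956670-88956969 (plus strand) for Bcl2a1a.
Tnip3: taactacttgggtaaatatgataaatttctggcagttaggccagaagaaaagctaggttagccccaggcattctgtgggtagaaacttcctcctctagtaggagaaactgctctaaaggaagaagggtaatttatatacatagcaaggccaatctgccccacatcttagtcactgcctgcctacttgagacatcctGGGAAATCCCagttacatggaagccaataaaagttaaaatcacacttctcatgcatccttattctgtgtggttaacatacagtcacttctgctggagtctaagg
Nfkbia: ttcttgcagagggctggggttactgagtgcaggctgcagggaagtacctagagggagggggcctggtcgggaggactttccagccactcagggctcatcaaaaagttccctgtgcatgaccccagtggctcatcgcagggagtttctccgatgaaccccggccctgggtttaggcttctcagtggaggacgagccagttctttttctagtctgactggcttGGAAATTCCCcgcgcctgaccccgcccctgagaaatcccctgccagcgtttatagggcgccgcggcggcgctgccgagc
Tnfaip3: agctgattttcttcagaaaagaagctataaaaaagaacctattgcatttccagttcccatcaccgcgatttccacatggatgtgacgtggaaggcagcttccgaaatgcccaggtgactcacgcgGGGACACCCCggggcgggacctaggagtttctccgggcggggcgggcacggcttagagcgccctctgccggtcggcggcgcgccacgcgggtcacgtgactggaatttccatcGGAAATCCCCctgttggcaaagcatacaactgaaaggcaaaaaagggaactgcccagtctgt
Bcl2a1a: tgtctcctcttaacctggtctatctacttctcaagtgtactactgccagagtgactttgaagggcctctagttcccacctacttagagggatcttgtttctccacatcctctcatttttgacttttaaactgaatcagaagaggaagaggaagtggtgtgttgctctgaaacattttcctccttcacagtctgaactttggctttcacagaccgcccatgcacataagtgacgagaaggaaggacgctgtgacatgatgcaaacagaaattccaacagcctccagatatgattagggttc
In the Tnip3 window the match spans bases -54 to -45 from the start and reads as the consensus on either strand. The Nfkbia match lies at -29 to -20 on the opposite strand, and Tnfaip3 has matches at -125 to -116 and at -12 to -3. A match is a stretch of letters and not evidence of binding, which was not measured here.

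The 10 genes are protein-coding in GENCODE M21 (GRCm38). Tnip3 spans chr6:65525313-65634040, and the RefSeq start used for its window lies inside that span. Nfkbia lies at chr12:55489410-55492647 and Tnfaip3 at chr10:19000910-19015657. Bcl2a1a (chr9:88956900-88962419), Bcl2a1b (chr9:89199209-89207827) and Bcl2a1d (chr9:88723285-88731914) lie together on chromosome 9. Over their last 300 transcript bases Bcl2a1a and Bcl2a1d were 99.3% identical, Bcl2a1b and Bcl2a1d 98.0% and Bcl2a1a and Bcl2a1b 97.4%. Of the 90-base stretches in the last 400 bases, 27% in Bcl2a1a, 34.1% in Bcl2a1b and 60.8% in Bcl2a1d were also present in another transcript of the family. Counts of the 3 paralogs are therefore uncertain, and reads may be lost or split among them.

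Macrophages were taken as cells with at least 0.5% of their UMIs in C1qa, C1qb and C1qc, the subunits of complement C1q. This held for 2094 of 3741 cells (1484 male, 610 female). All 8 listed macrophage markers were detected in them, but the C1q subunits that set the threshold are among these. In the male macrophages 15 of 15 neutrophil and 12 of 12 T and NK cell markers were detected too, so detection alone does not name a cell. Few cells were near the border, with 25 between 0.4% and 0.6%. The macrophages were divided by UMIs of Fcrls, a gene of resident macrophages and microglia, and Ccr2, the receptor that recruits monocytes from blood. Of the male macrophages, 678 had Fcrls only, 583 both, 156 Ccr2 only and 67 neither, and of the female ones 297, 231, 55 and 27. The remaining cells were clustered without the member genes, and clusters were called X-like from listed markers. Fewer cells of a kind in a sum and less RNA per cell cannot be told apart in summed UMIs. Levels are given as CPM, a gene's UMIs as a share of all UMIs of the class on the usual CPM scale. For Tnip3, and in part for Bcl2a1a and Bcl2a1d, the share of cells that had a UMI is given as well.

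One cluster of 123 cells is called here by its leading genes, the C-type lectins Cd209a and Mgl2, in place of a cell type name. It was drawn from the cells below the C1q threshold, which by itself fixes its low C1q (99 cells below 0.05%). Markers were called raised against the other clustered cells, from which macrophages had been removed. By that rule the cluster had 7 raised macrophage markers, C1q subunits among them, and 3 raised dendritic cell markers, which gave it the macrophage name. A listed dendritic cell marker, Cd209a, was among its leading genes. Of the macrophage markers outside C1q, Csf1r had a UMI in 80.5% of its cells, Adgre1 in 38.2%, Fcgr1 in 36.6%, Cx3cr1 in 32.5% and Mertk in 5.69%. Of the 13 dendritic cell markers 12 were detected. Cd209a had a UMI in 76.4% of the cluster's cells, Bst2 in 71.5%, Clec10a in 49.6%, Flt3 in 29.3% and Ifi205 in 22.0%. Zbtb46 had a UMI in 11.4%, Ccr7 in 8.13%, Siglech in 6.50%, Clec9a in 3.25%, and Xcr1, Itgae and Ccr9 in 0.813% each. Bst2 was also in 74.4% of Ccr2-only macrophages. Outside these lists Itgax was in 40.7% and Dpp4 in 39.0%, against 1.42% each in Ccr2-only macrophages. In the cluster led by Xcr1, Itgax was in 37.0% and Dpp4 in 60.3%. The macrophage receptor Cd163 was in 43.9% of the cluster's cells and Mgl2 in 70.7%. In Ccr2-only macrophages they were in 29.9% and 64.0%, and in the cluster led by Xcr1 in 2.74% and 8.22%. In the Cd209a/Mgl2 cluster the 2 genes that divide the macrophages were also present. Ccr2 had a UMI in 88.6% and Fcrls in 52.8%, against 91.8% and 6.85% in the cluster led by Xcr1. With a C1q threshold of 1% the matching cluster held 105 cells. It had 0 raised macrophage and 3 raised dendritic cell markers, and took the dendritic cell name.

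Tnip3 was concentrated in few classes. In male mice M1, M2 and M3 its level was 630, 680.4 and 653.7 CPM in the Cd209a/Mgl2 cluster, 227.4, 303.8 and 326.2 CPM in Ccr2-only macrophages, and 2.92, 6.21 and 12 CPM in Fcrls-only macrophages. These 3 classes did not overlap in any mouse. Macrophages with both genes lay between the Ccr2-only and the Fcrls-only ones at 81.7, 62.6 and 79.2 CPM (mean 74.5 ± 10.4, SD, n = 3). The means of the former classes were 654.7 ± 25.2, 285.8 ± 51.8 and 7.05 ± 4.60 CPM (SD, n = 3). Next in order came cDC1-like cells, the cross-presenting dendritic cells marked by Xcr1 and Clec9a, at 140.1 ± 64.2 CPM, below Ccr2-only macrophages in each mouse. The cDC1-like cells, macrophages with neither gene (85.8 ± 43.8), those with both and monocyte-like cells (36.0 ± 25.8) overlapped with their neighbors in the order.

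Cells without the gene set the background of free RNA. In male B-cell-like cells with Ms4a1 and Ighd, Tnip3 had a UMI in 0 of 79 cells (median 3296 UMIs). This allows a share of up to 4.56% by the 95% exact interval. Over all male B-lineage cells 0 UMIs were seen, with 3 UMIs worth 3.43 CPM. Tnip3 UMIs were present in 82.9% of male Cd209a/Mgl2 cells (95% exact interval 72.0% to 90.8%), 42.3% of Ccr2-only macrophages (34.4% to 50.5%), 20.8% of those with both (17.5% to 24.3%) and 4.57% of Fcrls-only macrophages (3.13% to 6.43%). Intervals cover counting error only. After each cell was thinned to 2000 UMIs these shares were 47.8%, 25.0%, 7.08% and 1.5%, in the same order. The female shares were 90.6%, 50.9%, 22.1% and 6.06%. Fcrls-only macrophages of the males were deeper than the B-cell-like cells, at a median of 8521.5 UMIs. Their Tnip3 level over all male mice was 9.08 CPM, above the 3.43 CPM that 3 UMIs would make in the B-lineage cells. The level of M1 alone was below that value.

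Among cells with Tnip3 the number of UMIs varied. Male Cd209a/Mgl2 cells with Tnip3 had a median of 6 UMIs and up to 48, Ccr2-only macrophages a median of 3 and up to 35, and Fcrls-only macrophages a median of 1 and up to 12. At least 5 UMIs were seen in 35, 28 and 1 of these cells.

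**Figure D1:**
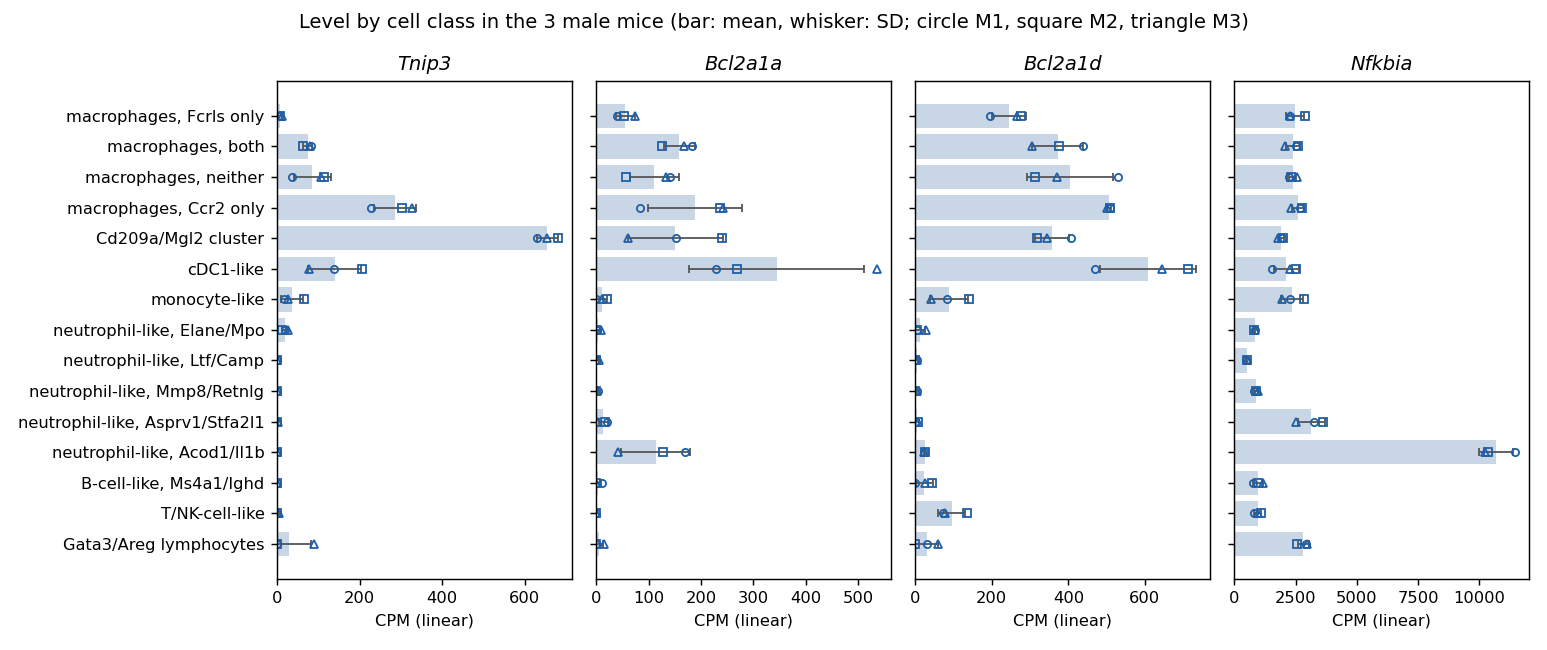
Level in CPM (linear axes, one scale per gene) of Tnip3, Bcl2a1a, Bcl2a1d and Nfkbia in classes of male cells, with the mean of 3 mice as bar, the SD as whisker and each mouse with at least 5 cells as a symbol. Tnip3 is highest in the Cd209a/Mgl2 cluster (mean 654.7 CPM) and at 0 UMIs in the Acod1/Il1b neutrophil-like cells, where Nfkbia is highest (mean 10675 CPM).

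The general feedback genes had another order. Nfkbia was highest in neutrophil-like cells with Acod1 and Il1b, at 11465, 10348 and 10211 CPM in M1, M2 and M3, above every other class in each mouse. In the same cells Nfkbiz, which encodes the nuclear inhibitor-like protein IκBζ, was at 1403 ± 166 CPM, Tnfaip3 at 615.3 ± 152 CPM and Nfkbid, the nuclear family member IκBNS, at 619.5 ± 148 CPM (SD, n = 3). Tnip3 had 0 UMIs in these 93 male cells, of 245433 UMIs, a sum in which 3 UMIs would be 12.2 CPM. These cells were shallow, with a median of 2546 UMIs. Their Bcl2a1 genes were divided, with Bcl2a1b at 311.3 ± 44.5 CPM, Bcl2a1a at 113.6 ± 65.2 and Bcl2a1d at 24.7 ± 0.780 CPM.

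Across macrophage classes Nfkbia, Nfkbiz and Tnfaip3 were nearly level in the male mice. The female test below called Tnfaip3 and Nfkbiz lower in Ccr2-only cells. Nfkbia was at 2472 ± 374 CPM in male Fcrls-only macrophages, 2390 ± 287 in those with both and 2592 ± 237 in Ccr2-only macrophages. Nfkbiz was at 859.1 ± 179, 770.5 ± 74.9 and 701.7 ± 11.6 CPM, and Tnfaip3 at 363.0 ± 63.6, 295.4 ± 38.6 and 308.7 ± 27.7 CPM. The mice of these classes overlapped for all 3 genes, unlike for Tnip3. Nfkbid was less level, at 131.0 ± 26.8, 111.5 ± 33.8 and 93.5 ± 15.3 CPM. It was lower in Ccr2-only than in Fcrls-only macrophages of 3 of 3 male mice. In the Cd209a/Mgl2 cluster Nfkbia was at 1903 ± 120 CPM, Nfkbiz at 334.0 ± 65.0 and Tnfaip3 at 206.05 ± 62.3 CPM, below the means of all macrophage classes, while Tnip3 was above them.

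Nfkbie and Nfkbid were uneven across lymphocytes. Nfkbid was at 363.2 ± 88.0 CPM in male B-cell-like cells with Ms4a1 and Ighd and 338.4 ± 25.8 CPM in lymphocytes with Gata3 and Areg, against 120.0 ± 9.69 CPM over all macrophages, and lower than these at 73.6 ± 22.3 CPM in T/NK-cell-like cells. Nfkbie, the inhibitor IκBε, was at 94.5 ± 6.33 CPM in the B-cell-like cells and 48.2 ± 3.25 CPM in macrophages, with 27.0 ± 10.8 CPM in T/NK-cell-like cells and 21.3 ± 8.43 CPM in the Gata3/Areg lymphocytes. Tnip1, the widely expressed relative of Tnip3, was low throughout, with 8.12 ± 0.346 CPM in macrophages and 48.7 ± 16.8 CPM in the Gata3/Areg lymphocytes.

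The 3 Bcl2a1 paralogs did not share 1 order. Bcl2a1a was highest in cDC1-like cells at 229.2, 267.7 and 535.7 CPM in M1, M2 and M3, which held 5, 17 and 30 such cells. It was 84.6, 236.3 and 242.6 CPM in Ccr2-only and 39.5, 52.3 and 74.7 CPM in Fcrls-only macrophages. The ranges of the cDC1-like and Ccr2-only cells overlapped, and Fcrls-only macrophages were below both. Bcl2a1d was also highest in cDC1-like cells (609.1 ± 125 CPM), with 505.7 ± 4.79 CPM in Ccr2-only and 245.8 ± 44.7 CPM in Fcrls-only macrophages. In the Cd209a/Mgl2 cluster, where Tnip3 was highest, Bcl2a1a was at 151.1 ± 90.3 CPM and Bcl2a1d at 357.4 ± 45.4 CPM. Both means were below those of Ccr2-only macrophages, unlike for Tnip3. The female means went the same way. Bcl2a1a was at 196.1 ± 41.4 against 331.5 ± 112 CPM and Bcl2a1d at 340.8 ± 124 against 369.5 ± 130 CPM. Male macrophages with both genes had 158.4 ± 29.5 CPM of Bcl2a1a. Bcl2a1b was highest in the macrophage classes, from 912.9 ± 56.2 CPM with Fcrls only to 1113 ± 85.5 with Ccr2 only, against 295.6 ± 200 CPM in cDC1-like cells and 287.7 ± 105 CPM in the Cd209a/Mgl2 cluster. Each macrophage class had more Bcl2a1b than each class outside the macrophages in all 3 mice. Bcl2a1d had a UMI in 69.6% of male Fcrls-only and 81.4% of male Ccr2-only macrophages, and Bcl2a1a in 21.4% and 44.2%. Monocyte-like cells, of which there were 107 in the male mice, had 10.6 ± 10.1 CPM of Bcl2a1a and 57.4 ± 32.9 CPM of Bcl2a1b.

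Likeness over classes was described by Spearman's rho over 32 sums of male cells (15 classes by mouse, at least 20 cells each). The Cd209a/Mgl2 cluster, the cDC1-like cells and the Acod1/Il1b neutrophil-like cells each entered from M3 only. Gata3/Areg lymphocytes had fewer than 20 cells in each male mouse and did not enter. The classes with the highest Tnip3, Bcl2a1a, Bcl2a1d and Nfkbia thus rest on 1 mouse each. The sums share mice, 1 lane and differing depth, and no test was made. Of 8787 genes with at least 100 UMIs, the 5 most like Tnip3 were Havcr2 (0.91), Clec4b1 (0.89), Tspan33 (0.89), Sh2d1b1 (0.88) and Cxcl16 (0.87). Among the members Bcl2a1d was nearest to Tnip3 (0.77, position 103), followed by Bcl2a1a (0.66, position 428) and Bcl2a1b (0.54, position 943). Tnfaip3 (0.46), Nfkbiz (0.38), Nfkbia (0.34), Nfkbie (0.19), Nfkbid (-0.01) and Tnip1 (-0.37) were farther. Within the members Nfkbia was most like Nfkbiz (0.87) and Tnfaip3 (0.74), and Bcl2a1b was most like Bcl2a1d (0.86).

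The female macrophages, which had no part in choosing the members, carried the test of Ccr2-only against Fcrls-only cells. In female mice F1, F2 and F3, Tnip3 was at 454.4, 93.2 and 649.4 CPM in Ccr2-only macrophages and at 17.1, 17.0 and 21.7 CPM in Fcrls-only macrophages. Every Ccr2-only value was above every Fcrls-only value, and F2 was the lowest, with 10 UMIs in 17 cells against 66 and 84 UMIs in 19 cells each. Tnip3 was higher by a log2 fold of 4.48 (SE 0.42, Benjamini-Hochberg adjusted p = 1.03e-06 in edgeR, with 3 of 3 mice higher). Bcl2a1a was at 371.8, 205.1 and 417.5 CPM against 141.8, 89.95 and 56.3 CPM, again without overlap, and was higher by 1.87 (SE 0.30, edgeR adjusted p = 5.01e-04). Both calls were kept in each of 8 alternatives, with adjusted p of up to 0.0021 for Tnip3 and 0.0495 for Bcl2a1a. The log2 fold ranged from 3.29 (classes set by the larger of the 2 counts) to 4.83 for Tnip3, and for Bcl2a1a from 1.32 under the same class rule, and 1.36 without F3, to 2.17.

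Of the 4039 genes tested, 6.83% were called (3.61% higher and 3.22% lower), and of the members 9 were tested, with 2 higher and 2 lower. Tnip1 was too low for the test. The lower ones were general feedback genes. Tnfaip3 was at 206.6, 223.8 and 301.5 CPM in Ccr2-only and 396.5, 482.0 and 382.5 CPM in Fcrls-only macrophages (log2 fold -0.73, SE 0.18, edgeR adjusted p = 0.0188), and Nfkbiz at 667.9, 652.7 and 726.7 against 962.4, 1012 and 966.6 CPM (log2 fold -0.47, SE 0.13, adjusted p = 0.0392). The Tnfaip3 call was lost without F1 (adjusted p = 0.149) and without F2 (0.191), and the Nfkbiz call without F1 (0.136), F2 (0.255) or F3 (0.114) and with a C1q threshold of 1% (0.142). These classes differ in depth of the sums, with 107253 to 145233 UMIs in 17 to 19 cells against 589206 to 922808 UMIs in 77 to 124 cells.

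The remaining members did not pass the test. Nfkbia was at 2465, 2061 and 2860 CPM in Ccr2-only against 2927, 2446 and 2513 CPM in Fcrls-only macrophages, with overlap and a log2 fold of -0.04 (SE 0.14, edgeR adjusted p = 0.926). Bcl2a1b was at 1914, 1044 and 1098 CPM against 1183, 1193 and 759.6 CPM (log2 fold 0.44, SE 0.22, adjusted p = 0.292). Bcl2a1d had a log2 fold of 0.35 (SE 0.24, adjusted p = 0.507), Nfkbid of -0.08 (SE 0.29) and Nfkbie of -0.02 (SE 0.40). The median over the 9 members was -0.02, and over all genes tested 0.0044.

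**Figure D2:**
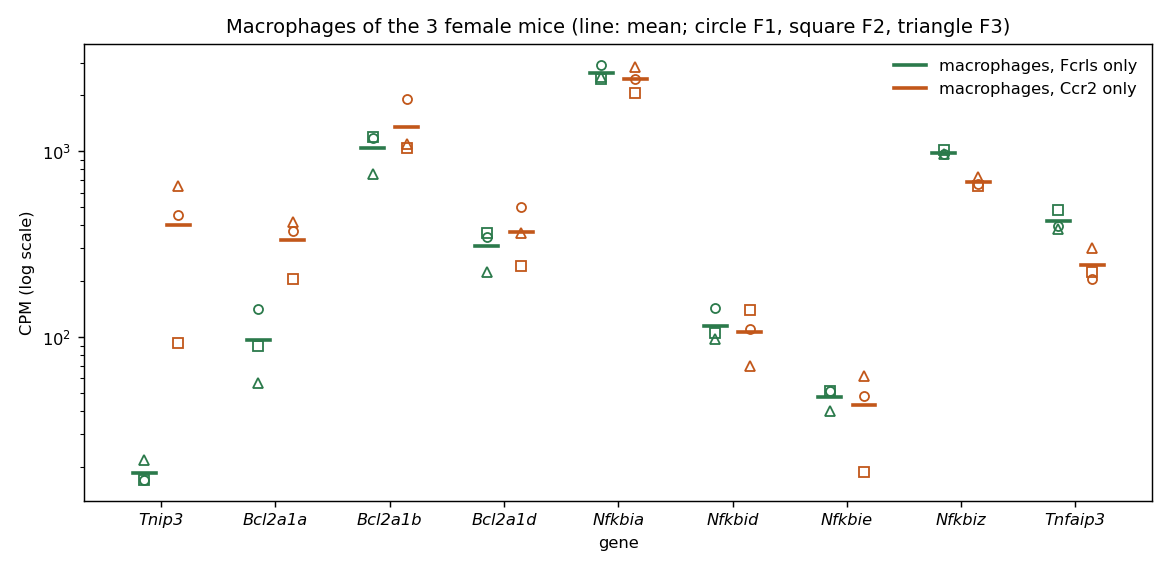
CPM (log axis) of the 9 tested members in Fcrls-only (green) and Ccr2-only (orange) macrophages of the 3 female mice, with a symbol per mouse and a line at the mean. Tnip3 and Bcl2a1a are higher in the Ccr2-only cells of all 3 mice without overlap, Tnfaip3 and Nfkbiz are lower, and the other 5 genes overlap.

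In the male mice, given as values only, the log2 difference of Ccr2-only from Fcrls-only macrophages was 5.18 for Tnip3, 1.91 for Bcl2a1a, 1.14 for Bcl2a1d, 0.40 for Bcl2a1b and 0.26 for Nfkbie. It was 0.18 for Nfkbia, -0.15 for Tnfaip3, -0.19 for Nfkbiz and -0.39 for Nfkbid. On the TMM scale of the fit, Tnip3 and the 3 paralogs were higher in 3 of 3 male mice and Nfkbid was lower in 3 of 3. Nfkbia was higher in 3 of 3 on that scale, although its unscaled CPM in M2 was lower in the Ccr2-only cells (2779 against 2904).

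The rest of the pathway was counted from lists. Of 32 genes of the NF-kB core (subunits, kinases, adaptors and other regulators) 21 were tested in the female cells and 0 were called by edgeR, with 4 at an unadjusted p under 0.05 and 0 called by DESeq2's Wald test. Of 30 inducible targets 24 were tested, and 4 rose and 2 fell (2 and 2 by DESeq2's test). Tnfsf9, the ligand 4-1BBL, rose most (log2 fold 2.57, SE 0.38, edgeR adjusted p = 1.84e-04), beside Ptgs2, the inducible prostaglandin synthase (1.25), the cytokine Tnf (1.01) and the adhesion molecule Icam1 (0.96). The chemokines Ccl2 (-1.48) and Cxcl1 (-1.31) fell. Targets thus moved in both directions, with a median of -0.18 over the list.

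Genes known to rise during tissue digestion moved with the same classes. Of 12 such genes 6 were lower in Ccr2-only female macrophages (Jun, Rhob, Atf3, Fos, Fosb and Dusp1) and 0 higher. Their summed share was 0.858% to 1.46% of UMIs in Ccr2-only against 1.69% to 1.98% in Fcrls-only macrophages of the female mice, and 1.07% to 1.22% against 1.44% to 2.42% in the males. The listed monocyte markers were at 0.0675% to 0.108% against 0.0402% to 0.0477%, a list that holds Ccr2 itself. The listed dendritic cell markers were at 0.0448% to 0.0688% against 0.0801% to 0.0819% (8 and 9 of 13 detected). The part of these lists in the member results was not tested.

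Within the macrophages that had a Ccr2 UMI, cells with and without a Tnip3 UMI were then compared in all 6 mice, with 19 to 104 Tnip3-positive and 62 to 310 Tnip3-negative cells a mouse. Median UMIs per cell were 8154.5 to 10295.5 and 7190.5 to 9902. Tnip3-positive cells were deeper in F1 (9244 against 7947), F2 (8413 against 7400) and F3 (8385 against 7190.5). They were also deeper in M2 and M3, and not in M1 (9158 against 9239). Tnip3-negative means that no Tnip3 UMI was seen at that depth. In the males 66 of 156 Ccr2-only macrophages and 121 of 583 with both genes were Tnip3-positive. In the females these were 28 of 55 and 51 of 231. The 2 sides of the split therefore differ in their make-up by Fcrls and Ccr2 class. Bcl2a1a had its lowest, median and highest mouse at 262.8, 287.8 and 318.0 CPM in Tnip3-positive cells and at 89.5, 117.9 and 207.6 CPM in Tnip3-negative cells. The groups did not overlap, and Bcl2a1a was higher by a log2 fold of 1.21 (SE 0.15) in 6 of 6 mice. Because the members were picked in the male cells, the 6-mouse fit is a description for them, and their test rests on the 3 female mice alone, a fit added after the data were seen. In the female mice F1, F2 and F3, Bcl2a1a was at 301.4, 263.8 and 318.0 CPM in Tnip3-positive cells and at 108.3, 207.6 and 109.6 CPM in Tnip3-negative cells, without overlap. It was higher by a log2 fold of 1.11 (SE 0.23, edgeR adjusted p = 0.0185) in 3 of 3 mice. Of 3769 genes tested in the female mice 1.62% were called (0.769% higher and 0.849% lower), and of the 8 members tested 1 was higher and 0 lower. Over 6 mice 3.62% of 4694 genes were called (1.96% higher and 1.66% lower), with 2 members higher and 0 lower.

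Calls and adjusted p of the members over 6 mice are a description, since the male cells had a part in choosing the members. Bcl2a1d was the second member past the threshold in that fit. It was at 428.7, 481.8 and 569.5 CPM (lowest, median, highest) against 296.2, 360.1 and 467.5 CPM, which overlap between mice. It was higher by 0.50 (SE 0.12) in 6 of 6 mice. It did not pass in the female mice alone (log2 fold 0.33, SE 0.17, edgeR adjusted p = 0.473). Its 6-mouse call (adjusted p = 0.0229) was also lost without M2 (0.161) or F3 (0.0634), in macrophages with Ccr2 but no Fcrls UMI (0.276) and in macrophages without a Cd209a UMI (0.256). Bcl2a1b, at 1012, 1288 and 1743 against 671.7, 999.5 and 1171 CPM, did not pass over 6 mice (log2 fold 0.45, SE 0.14, edgeR adjusted p = 0.0657, higher in 6 of 6) or in the female mice (0.51, SE 0.20, adjusted p = 0.257). It passed over 6 mice with no filter on low counts (0.00838) and without M3 (0.0424). Both sums of a mouse come from the same animal. With the mouse as a block over 6 mice, Bcl2a1b passed as well (edgeR adjusted p = 5.96e-05), and 408 genes were called in place of 170. The fit of the female mice alone was made without such a block. Bcl2a1b and Bcl2a1d were each higher in 3 of 3 female mice, so their failure to pass there does not show that they were unchanged.

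Of the 5 general feedback genes 0 were called by edgeR in the female mice, where adjusted p was 0.552 (Nfkbie) to 0.957 (Tnfaip3) and unadjusted p was 0.113 or more. Over 6 mice 0 were called by edgeR or by DESeq2's test, and 0 had an unadjusted p under 0.05. Nfkbia was at 1866, 2698 and 3097 CPM (lowest, median, highest) in Tnip3-positive and 2002, 2539 and 2779 CPM in Tnip3-negative cells (log2 fold 0.16, SE 0.11, higher in 5 of 6 mice). The log2 fold was 0.0037 for Nfkbiz (SE 0.09), 0.13 for Tnfaip3 (SE 0.10), 0.25 for Nfkbid (SE 0.17) and 0.19 for Nfkbie (SE 0.19). In the female mice alone it was 0.58 for Nfkbie (SE 0.34, 2 of 3 mice higher) and 0.29 for Nfkbid (SE 0.25, 3 of 3). There it was 0.11 for Nfkbia, 0.04 for Tnfaip3 and -0.06 for Nfkbiz. Nfkbie was thus above Bcl2a1b (0.51) and Bcl2a1d (0.33) in that fit. Failure to pass does not show that Nfkbie and Nfkbid were unchanged either. Relative to Nfkbia of the same cells, Bcl2a1a was higher in Tnip3-positive cells by a log2 value of 1.10 ± 0.33 (SD, n = 6, higher in 6 of 6 mice), Bcl2a1d by 0.36 ± 0.26 and Bcl2a1b by 0.32 ± 0.22 (5 of 6 mice each). The same value was -0.14 ± 0.21 for Nfkbiz and -0.0073 ± 0.43 for Tnfaip3, which ranged from -0.49 to 0.73 over the mice. These ratios were chosen after the values were seen and were not tested.

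**Figure D3:**
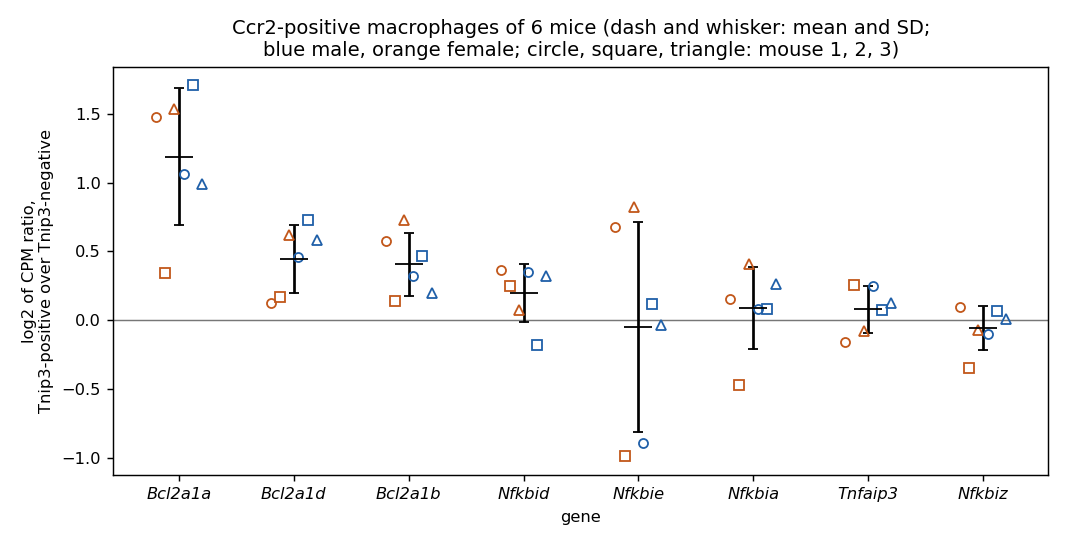
Log2 ratio of CPM in Tnip3-positive over Tnip3-negative macrophages with a Ccr2 UMI for 8 members, with a symbol for each of 6 mice (blue male, orange female), and the mean and SD as dash and whisker. All 6 mice lie above 0 for Bcl2a1a, Bcl2a1d and Bcl2a1b, and both signs occur for the other 5 genes.

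Other pathway genes also differed in this split over 6 mice. The lists were chosen with earlier results of these data known, so their calls and adjusted p are best read as a description. Of the core list 22 were tested, and Zc3h12a, the RNase Regnase-1 (log2 fold 0.86), Nfkb1 (0.65) and Rel (0.46), the latter both NF-kB subunits, rose in 6 of 6 mice each, with 0 lower and edgeR adjusted p of 5.31e-04, 0.00949 and 0.0155. Of 24 inducible genes 7 rose and 1 fell (6 and 0 by DESeq2's test). Tnfsf9 (1.58), Ptgs2 (0.80), Tnf (0.75), Sod2 (0.62), Il1b (0.50), Gadd45b (0.48) and Plek (0.40) were higher, and the interferon-responsive chemokine Cxcl10 (-1.22) was lower. Of the 12 digestion genes 7 were lower and 0 higher, and their share was 0.957% to 1.33% of UMIs in Tnip3-positive and 1.15% to 1.77% in Tnip3-negative cells. Its part in the results was not tested.

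Over all genes, the called genes with the largest rise that moved the same way in 6 of 6 mice were Cd209a (log2 fold 2.80, SE 0.46), Sirpb1c (2.04), Tnfsf9 (1.58), Klra2 (1.56) and Lsp1 (1.40). Those with the largest fall were Hspa1b (-1.59), Pla2g2d (-1.41), Txnip (-1.38), Ccl24 (-1.35) and Tcim (-1.31). Cd209a also led the Cd209a/Mgl2 cluster and was at 30.6 to 264.1 CPM in the Tnip3-positive and 2.33 to 34.4 CPM in the Tnip3-negative cells of a mouse. Without cells that had a Cd209a UMI 80 genes were called, and Bcl2a1a was among them. Fcrls was at 194.0 to 404.0 CPM in the Tnip3-positive and 452.5 to 638.4 CPM in the Tnip3-negative cells.

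Over macrophages and the Cd209a/Mgl2 cluster together, Tnip3 was highest where C1q was lowest. All cells below 0.5% of C1q in this order are Cd209a/Mgl2 cells, so its upper end restates the level of that cluster, and the macrophages enter from 0.5%. In male cells it was at 686.1 CPM in the 58 cells under 0.05% of C1q, at 444.1 from 0.05% to 0.5% (12 cells), and at 373.4, 258.9, 109.1, 35.7 and 38.3 CPM in the following bins. In female cells it was 908.3, 709.997, 53.3, 197.9, 122.8, 72.1 and 49.7 CPM. The bin from 0.05% to 0.5% held 12 cells of each sex and that from 0.5% to 0.75% held 19 male and 11 female cells, too few to give an order of their own. Bcl2a1b was lowest there, with 263.5 CPM under 0.05% of C1q and 953.3 CPM from 2% of C1q in the male cells, and Nfkbia varied from 1872 to 2855 CPM.

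**Figure D4:**
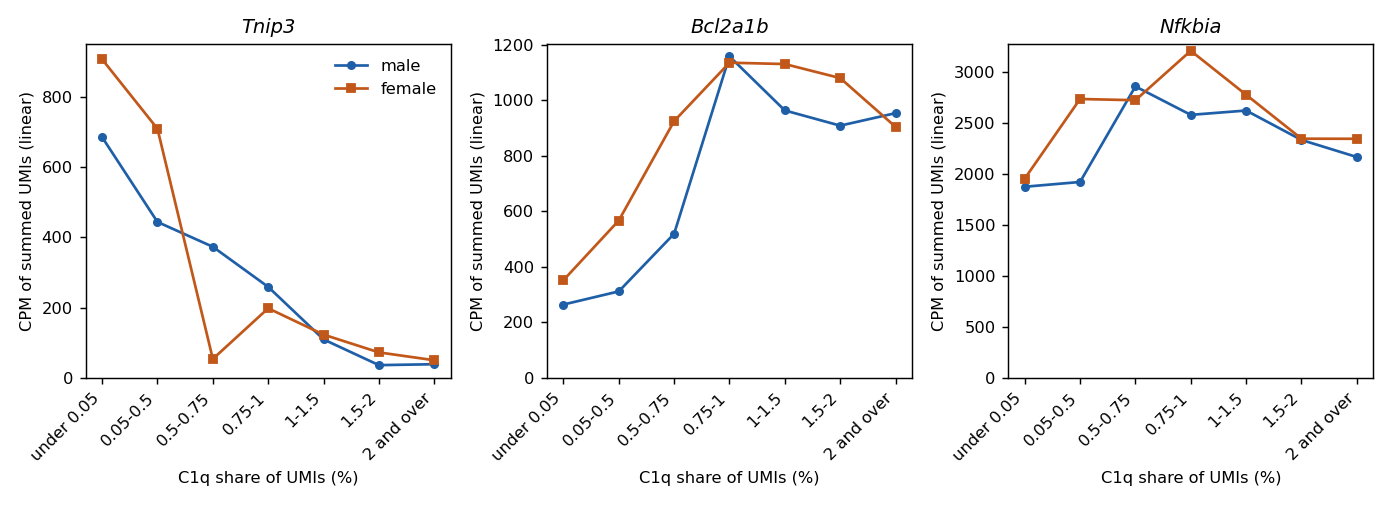
Level in CPM (linear) of Tnip3, Bcl2a1b and Nfkbia in cells binned by the share of UMIs in C1qa, C1qb and C1qc, for male (blue) and female (orange) macrophages and Cd209a/Mgl2 cells, each point a sum over all mice of a sex. Tnip3 is highest under 0.05% of C1q (686.1 and 908.3 CPM), and Bcl2a1b is lowest there (263.5 and 351.2 CPM).

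General feedback activity per cell was set beside Tnip3 by dividing each class and sex into 3 equal groups by the summed share of Nfkbia, Nfkbiz and Tnfaip3. In male Ccr2-only macrophages Nfkbia was at 1434, 2510 and 3878 CPM in the lowest, middle and highest group, and Tnip3 at 185.8 ± 132, 296.2 ± 136 and 397.0 ± 163 CPM (SD, n = 3). In Fcrls-only macrophages Nfkbia spanned a like range, from 1117 to 3932 CPM, with Tnip3 at 2.26 ± 1.96, 10.9 ± 3.50 and 8.0 ± 13.9 CPM. In female Ccr2-only macrophages Tnip3 was at 197.9 ± 150, 501.5 ± 276 and 492.4 ± 469 CPM. The share of digestion genes was also highest in the highest group, at 0.839%, 1.18% and 1.45% of UMIs in male Ccr2-only and 1.56%, 1.52% and 2.25% in male Fcrls-only macrophages, and its part was not tested. The lowest group of male Ccr2-only cells had a higher mean of Tnip3 than the highest group of male Fcrls-only cells. In female macrophages with both genes the order was opposite, with Tnip3 at 200.3 ± 16.9, 110.9 ± 24.4 and 89.3 ± 70.1 CPM. Over single macrophages with a Ccr2 UMI, Pearson's r of Tnip3 was 0.25 with Bcl2a1a, 0.23 with Bcl2a1d, 0.17 with Nfkbia, 0.085 with Bcl2a1b, 0.070 with Tnfaip3 and 0.034 with Nfkbiz in 739 male cells. In 286 female cells it was 0.23 with Bcl2a1a, 0.24 with Bcl2a1b, 0.17 with Bcl2a1d, 0.15 with Nfkbia, 0.032 with Nfkbiz and -0.00050 with Tnfaip3. The counts are sparse and the cells share depth and mice, so these are descriptions.

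Male and female macrophages were compared over all classes. The members were picked after results of the male cells had been seen, and those cells are a side of this comparison. Sex itself was not used in the choice, but the p-values of the members are best read as a description. Of 8114 genes tested 0.0863% were called (7 genes, 0.037% higher and 0.0493% lower in the males), and of the members 0 of 10. Tnip3 was at 63.4, 58.3 and 74.4 CPM in the male mice and 110.5, 69.6 and 121.4 CPM in the female mice, with overlap, and the log2 fold of male over female was -0.64 (SE 0.17, unadjusted p = 0.00184, edgeR adjusted p = 0.786). It was past the threshold without F2 (adjusted p = 0.0326) and with no filter on low counts (0.0016). Of the members, 2 had an unadjusted p under 0.05 in edgeR, the other one being Bcl2a1a (log2 fold -0.38, SE 0.16, edgeR adjusted p = 0.837). In DESeq2's test 0 members passed as well. Cd209a and Retnla were among the 4 genes lower in the males.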

How the data were processed

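The members, gene lists, tests and alternatives were chosen with earlier results of these data known. Per the labels and file headers, the authors processed reads with Cell Ranger 3.1.0 on mm10. They deposited raw UMI counts of 4395 barcodes and 31053 genes with counts of 6 hashtags, and raw UMI counts of 2668 cells, which had more than 200 and fewer than 5000 genes and mitochondrial UMIs below 5%. HTODemux on all 4395 barcodes (Seurat 5.3.0, R 4.3.3) followed by these filters returned the 2668 cells as the cells with 1 male hashtag, with 0 differing entries, and 1073 with 1 female hashtag. All barcodes are of 1 lane, and a hashtag was taken as a mouse. Of 4111 barcodes passing the filters, 269 hashtag doublets and 101 without a hashtag were left out. Doublets within a mouse were not called. The 6 mice matched the sex of their hashtags. Mice held 2272347 to 13508078 UMIs.

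Cells outside the C1q threshold were clustered (2000 variable features without the members, 15 principal components, resolution 0.5) and named where at least 3 markers were raised (in 20% of cells, log2 fold of 1). UMIs were summed per mouse and class. Mean levels need at least 5 cells in a mouse. Sums were tested with edgeR 4.0.16 (TMM, filterByExpr, quasi-likelihood test, Benjamini-Hochberg over all genes tested, threshold 0.05), without Tnip3 in the test that Tnip3 splits. DESeq2 1.42.0 was an alternative. The test was checked on simulated counts. Named genes were the members, called genes of 2 pathway lists, the 5 genes most like Tnip3 and the 5 called genes with the largest fold each way in the Tnip3 split that moved alike in 6 mice. Same-mouse sums come from 1 animal: the correlation of their deviations was 0.08 to 0.42 in the Tnip3 split and -0.03 to 0.09 in the female test. Alternatives were DESeq2, no filter, each mouse left out, a C1q threshold of 1%, the mouse as block, other class rules, thinning to 2000 UMIs, the mean of per-cell CPM and resolutions 0.3 and 0.8. Macrophages without Cd209a, and the Tnip3 split in the female mice only (without a block), were added after seeing the data.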

Additional observations from a re-analysis of the deposited data

How the results depend on the processing

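In the female test 276 genes were called, and 99 to 176 with a mouse left out (99 without F1, 176 without F2, 124 without F3). In the Tnip3 split 170 were called, 91 to 178 with a mouse left out (91 without M2, 112 without F3), 98 with a C1q threshold of 1%, 23 of 1039 genes tested in macrophages with Ccr2 but no Fcrls UMI, 80 without Cd209a-positive cells and 61 in the female mice only (both chosen after seeing the data) and 408 with the mouse as replicate block. Between the sexes 7 were called, 104 with no filter on low counts and 5 to 66 with a mouse left out (66 without M2). Some of these settings hold fewer cells, mice or genes and others do not, and the cause of the differences was not tested. The block called 309 genes in the female test, and beside Bcl2a1b in the Tnip3 split it changed no call of a member. The Tnip3 level of the Cd209a/Mgl2 cluster was 654.7 CPM, 751.0 CPM with a threshold of 1%, 603.4 as mean over cells and 598.2 at resolution 0.3. Differences near 0 changed sign without being called: Nfkbia 0.013 in the female test at a threshold of 1% and 0.013 with classes by the larger count, Nfkbiz -0.026 in the Tnip3 split with no filter and -0.047 after thinning and -0.057 in the female mice only. With a mouse left out, Nfkbia ranged from -0.22 to 0.0054, Nfkbid from -0.36 to 0.026 and Nfkbie from -0.50 to 0.30 in the female test. Between the sexes Nfkbia ranged from -0.20 to 0.013, Nfkbid from -0.0010 to 0.31, Nfkbie from -0.068 to 0.10 and Tnip1 from -0.095 to 0.26, and Nfkbiz in the Tnip3 split from -0.031 to 0.063. Female Ccr2-only macrophages numbered 17 to 19 a mouse, so differences of the lower genes (Nfkbie, Nfkbid) were not resolved.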

Other observations

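Tnip3 UMIs were also present in neutrophil-like cells with Elane and Mpo, the earliest granule stage. In the male mice their Tnip3 level was 18.4, 12.4 and 27.5 CPM, with a UMI in 14 of 125 cells (11.2%, 95% exact interval 6.26% to 18.1%), at a median of 19218 UMIs a cell. In the Mmp8/Retnlg stage it was 1 of 141 cells and in the Asprv1/Stfa2l1 stage 1 of 191. In the Acod1/Il1b stage it was 0 of 93 (95% exact interval up to 3.89%). After thinning to 2000 UMIs the share was 2.63% in the Elane/Mpo stage and 0.709% in the Mmp8/Retnlg stage. In the Ltf/Camp stage it was 0 of 72 male cells at a median of 12711 UMIs (95% exact interval up to 4.99%). In the female mice it was 1 of 37 cells in the Elane/Mpo stage and 1 of 25 in the Ltf/Camp stage. In the males Nfkbia was at 865.3, 813.9 and 838.1 CPM in M1, M2 and M3 in the Elane/Mpo stage, 503.8 ± 21.4 CPM in the Ltf/Camp stage and 10675 ± 688 CPM in the Acod1/Il1b stage.

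Female cDC1-like cells, 21 in all, had 599.4, 580.8 and 710.3 CPM of Bcl2a1a and 4114, 3892 and 2957 CPM of Nfkbia in F1, F2 and F3, above the male values of 229.2 to 535.7 and 1559 to 2529 CPM. With 5 to 9 cells a female mouse, and 5, 17 and 30 cells in M1, M2 and M3, this difference was not tested. The Tnip3 level of the Cd209a/Mgl2 cluster was 608.5, 1185 and 925.1 CPM in the female mice, and F2, the mouse with the lowest Tnip3 level in Ccr2-only macrophages, was the highest here.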
